A study of Sus scrofa with 79 samples.

Results

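Genes of fatty acid oxidation were followed in the small intestine of pigs from suckling age to adulthood, and in blood at suckling age. The genes were ACADL, ACADM, ACADS, CPT1A, CPT1B, CPT2, HADHA and PPARA, 8 in all, and their probes were found by matching the accession that the scanner files give each probe to the RefSeq names of these genes. Of the 8 genes 7 had a probe, and CPT2 was not analysed here. The 7 genes had 28 of the 43603 probes of the array, that is 6 probes for ACADL (NCBI gene 396931), 7 for ACADM (397104), 2 for ACADS (396932), 6 for CPT1A (399527), 3 for CPT1B (399528), 3 for HADHA (397012) and 1 for PPARA (397239). None of these genes encodes an enzyme that makes or uses ketone bodies, and OXCT1 and SLC16A1 were examined for that branch.

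Long-chain fatty acids are bound to carnitine on the outer mitochondrial membrane by CPT1, carried across, and released as acyl-CoA by CPT2. Inside the mitochondrion each round of beta-oxidation starts with an acyl-CoA dehydrogenase, of which ACADL, ACADM and ACADS prefer long, medium and short chains. For long chains the round continues on the trifunctional protein, whose alpha subunit is HADHA. PPARA is a nuclear receptor that fatty acids activate and that switches on many genes of this route. Sow's milk is rich in fat, so that the gut of a suckling piglet handles much more fat than that of a weaned pig.

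Pools of animals, described as 4 piglets each at day 8, were hybridised to 1-colour Agilent pig arrays, and 79 arrays were analysed. T1 piglets were left undisturbed until blood was drawn, T2 piglets were injected with the antibiotic tulathromycin at day 4 after birth, and T3 piglets received this injection together with docking, clipping and weighing. As the authors describe for day 8, every litter was divided over the treatments, each pool drew on 4 sows, and piglets stayed with their own sow. Their description does not cover the litters, housing and pools of days 55 and 176. Jejunum was measured in 12 pools at day 8, 11 at day 55 and 11 at day 176, ileum in 11 pools at each of these ages, and blood in 12 pools at day 8. Each group of tissue, age and treatment had 4 pools, except 3 for T2 in ileum at days 8 and 55, for T2 in jejunum at days 55 and 176, and for T3 in ileum at day 176. All values are log2 signals on 1 normalized scale per fit, and levels of different genes are not compared, since probes differ in brightness. Because whole tissue was measured, fewer cells of a type and less RNA per cell cannot be told apart.

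The scanner files and the deposited table of normalized values named the gut arrays of days 8 and 55 differently. Of these 45 arrays, 44 matched a column of the table that had the same treatment and pool but another tissue or day, and jejunum T2 pool 8 of day 8 matched none. Arrays scanned as jejunum day 8 matched columns named ileum day 8, those of ileum day 8 matched ileum day 55, those of jejunum day 55 matched jejunum day 8, and those of ileum day 55 matched jejunum day 55. The arrays of blood and of day 176 matched their own columns. The groups below follow the scanner files, and the counts under the table's names stand beside each comparison. Deviations of the same pool from the group medians correlated with a mean of 0.349 over 11 pairs between the arrays scanned as jejunum and ileum of day 8, and with a mean of 0.0512 or less between jejunum day 8 and either tissue at day 55.

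The tissue names were also set against marker genes. RBP2, a retinol carrier of absorptive cells of the upper gut, had a median of 17.8 in jejunum and 17.77 in ileum at day 8, of 17.44 and 13.14 at day 55, and of 16.6 and 11.97 at day 176. FABP6, the bile acid carrier of the ileum, ran from 5.82 to 16.16 in jejunum and from 5.62 to 16.48 in ileum at day 8, so that the labelled tissues were not separated by it at that age. At day 55 FABP6 ran from 14.02 to 18.52 in jejunum and from 17.81 to 18.33 in ileum, and at day 176 jejunum ranged down to 7.52. The share of probes that the scanner software marked well above background was 42.4% to 75.2% on gut arrays and 34.9% to 44.2% on blood arrays. The 4 ileum arrays of T3 at day 55 had 42.4% to 52% and lay on a slide of their own, against 62.7% to 73.2% for T1 and T2 of that tissue and age on another slide. Jejunum T2 pool 8 of day 176, ileum T1 pool 11 of day 8, jejunum T1 pool 9 of day 176 and jejunum T2 pool 8 of day 8 stood farthest from the other arrays of their tissue and age, with median SDs of the difference of 2.02, 1.4, 1.25 and 1.22, where the next array had 1.13. Counts were repeated without the first, second and last of these, and without all 4.

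Most of the 7 genes were lower after the suckling period, in both parts of the gut. A gene was called when its adjusted p from limma was below 0.05 and its fold above 1.5. In jejunum 5 of 7 genes were called at day 55 against day 8, all lower (CPT1A, CPT1B, ACADM, ACADS and HADHA), where 37.1% of the 30816 genes tested were called, and 4 of 7 at day 176, all lower, where 49% were called. In ileum 6 of 7 genes were called at both later ages, all lower, PPARA among them with several arrays at background and CPT1B being the exception, where 47.3% of all genes were called at day 55 and 48.6% at day 176. The median difference of the 7 genes from day 8 was -0.81 and -1.17 in jejunum and -1.16 and -1.09 in ileum, at days 55 and 176 in turn, and that of all genes lay between 0.03 and 0.13. Between days 55 and 176 only HADHA and PPARA were called in jejunum, both lower, where 36.9% of genes were called, and in ileum limma called 0 of 7, where 28.3% of genes were called and 3 of the 7 had an unadjusted p below 0.05.

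Under the table's names 2 of 7 genes were called in jejunum at day 55 against day 8 (ACADL and PPARA, lower), where 39.9% of all genes were called, 2 at day 176 against day 8 (HADHA and PPARA, lower), where 37.1% were called, and 0 in ileum at day 55, where 2.1% were called. The fall from day 8 to day 176 in ileum was called for the same 6 genes under both sets of names, with 50.3% of all genes called under those of the table. From day 55 to day 176 the table's names gave 2 of 7 in jejunum (ACADL and PPARA, higher), where 42.5% were called, and 6 of 7 in ileum, all lower, where 48.6% were called. Each tissue and age was scanned in 1 session, and no 2 ages of a tissue shared one, so that age and scan cannot be told apart.

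**Figure D1:**
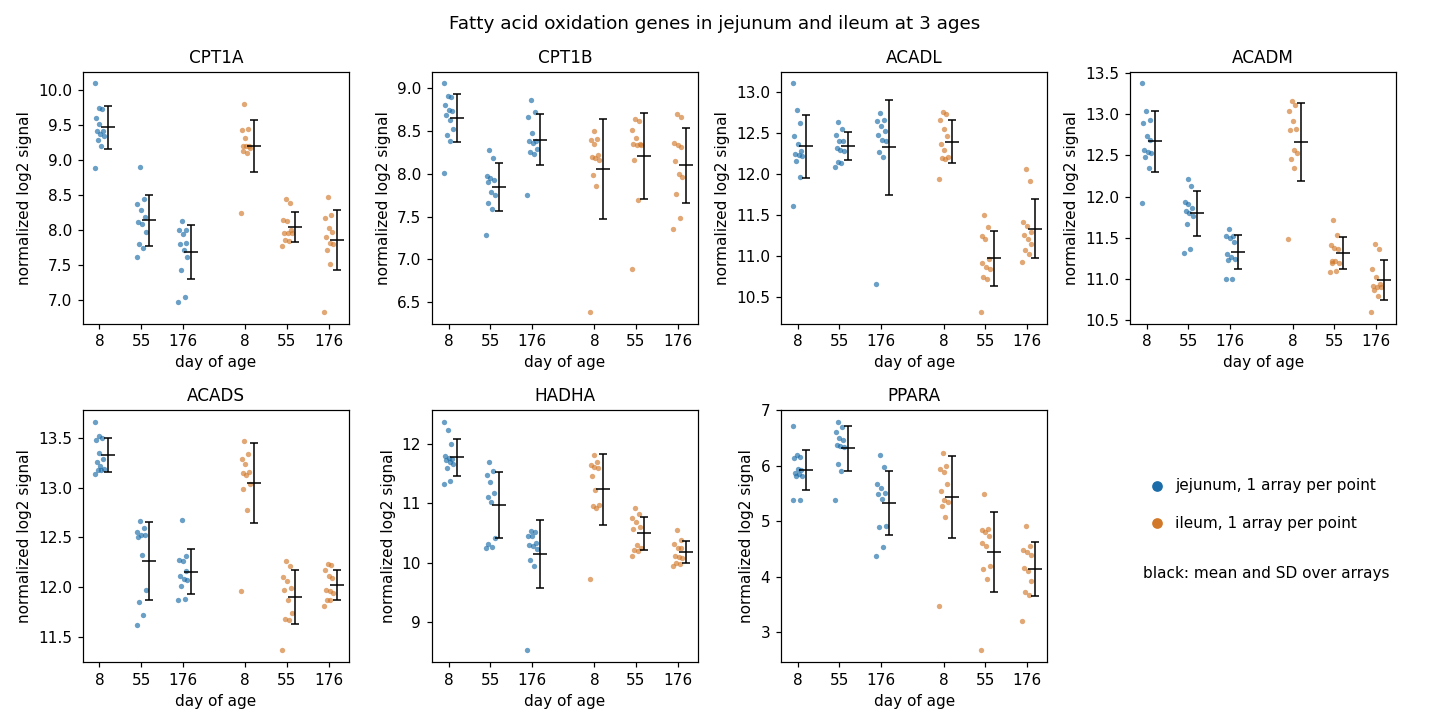
Normalized log2 signal of the 7 genes (vertical axes) against age in days, with jejunum in blue and ileum in orange, 1 point per array of a pool and black bars for mean and SD over 11 or 12 arrays. ACADM, ACADS, CPT1A and HADHA are lower at days 55 and 176 in both tissues, while ACADL and PPARA lie lower in ileum than in jejunum at these ages.

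CPT1A, the carnitine acyltransferase form of liver and gut and the gatekeeper of long-chain oxidation, fell most in jejunum. Its signal in jejunum ran from 8.88 to 10.09 (median 9.41) at day 8, from 7.61 to 8.9 (median 8.11) at day 55 and from 6.97 to 8.13 (median 7.8) at day 176. In ileum it ran from 8.24 to 9.79 (median 9.19), from 7.77 to 8.44 (median 7.95) and from 6.82 to 8.46 (median 7.89) at the same ages. In jejunum the arrays of day 176 lay wholly below those of day 8 and those of day 55 just reached them, and in ileum the only array of day 8 inside the later ranges was that of T1 pool 11. The difference from day 8 was -1.33 ± 0.14 (SE) at day 55, a 2.51-fold lower signal, and -1.82 ± 0.14 at day 176, a 3.53-fold lower signal, in jejunum (adjusted p 5.59e-12 and 6.52e-17). In ileum it was -1.16 ± 0.14 and -1.35 ± 0.14 (adjusted p 3.3e-10 and 3.45e-12). The CPT1A probes did not move alike. Of the 5 probes fitted, 4 were called lower in jejunum at day 55 and in ileum at both later ages, and 5 in jejunum at day 176, with probe differences from -0.54 to -2.67 in jejunum. The exception was the brightest probe, which had a mean of 12.6 in jejunum and 12.8 in ileum at day 8 and of 11.8 and 12.9 at day 176, so that in ileum its difference at day 176 was 0.27 ± 0.42 and not called.

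CPT1B, the form of muscle, behaved otherwise. In jejunum it ran from 8.01 to 9.06 (median 8.71) at day 8, from 7.28 to 8.28 (median 7.91) at day 55 and from 7.75 to 8.87 (median 8.38) at day 176. The fall of 1.75-fold at day 55 was called (-0.81 ± 0.17, adjusted p 0.000121), and the values at day 176 (-0.24 ± 0.17) were not. In ileum CPT1B ran from 6.38 to 8.5, from 6.89 to 8.64 and from 7.36 to 8.7, so that the ages overlapped almost wholly, with differences from day 8 of 0.14 ± 0.18 and 0.03 ± 0.18. The change from day 8 to day 55 in jejunum differed from that in ileum by -0.95 ± 0.25 (adjusted p 0.00208). In jejunum the call at day 55 was lost in the T1 arrays alone (-0.55, adjusted p 0.29) and against the arrays scanned as ileum at day 8 (-0.23, adjusted p 0.333).

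ACADM, the medium-chain dehydrogenase, was measured with the most probes, and they moved together. In jejunum it ran from 11.92 to 13.37 (median 12.62), from 11.32 to 12.21 (median 11.83) and from 11 to 11.61 (median 11.3) at days 8, 55 and 176. In ileum it ran from 11.49 to 13.15 (median 12.81), from 11.09 to 11.72 (median 11.22) and from 10.6 to 11.43 (median 10.92). At day 176 no array of either tissue reached the range of day 8. The falls were 1.82-fold and 2.55-fold in jejunum (-0.86 ± 0.13 and -1.35 ± 0.13, adjusted p 9.71e-08 and 1.96e-13) and 2.55-fold and 3.23-fold in ileum (-1.35 ± 0.13 and -1.69 ± 0.13, adjusted p 4.17e-13 and 1.58e-16). Each of the 7 probes was called lower in ileum at both ages and in jejunum at day 176, and 6 of 7 in jejunum at day 55. In the T1 arrays alone the jejunum difference at day 55 was -0.5 (adjusted p 0.158).

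ACADS, the short-chain dehydrogenase, was lower by day 55 and showed no called difference after that. In jejunum it ran from 13.14 to 13.67 (median 13.27) at day 8, from 11.62 to 12.67 (median 12.5) at day 55 and from 11.87 to 12.68 (median 12.11) at day 176. In ileum it ran from 11.96 to 13.47 (median 13.15), from 11.36 to 12.26 (median 11.97) and from 11.81 to 12.23 (median 11.97). The jejunum arrays of day 8 lay above all later ones, and in ileum the T1 pool 11 array of day 8 was the only one that did not. The differences from day 8 were -1.06 ± 0.09 and -1.17 ± 0.09 in jejunum and -1.16 ± 0.1 and -1.05 ± 0.1 in ileum, that is 2.07-fold to 2.25-fold lower, with both probes called each time. From day 55 to day 176 ACADS differed by -0.12 ± 0.1 in jejunum and 0.11 ± 0.1 in ileum, neither called.

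ACADL, the long-chain dehydrogenase, changed with age in ileum only among the called differences. In jejunum it ran from 11.61 to 13.11 (median 12.26), from 12.09 to 12.64 (median 12.32) and from 10.65 to 12.75 (median 12.48) at days 8, 55 and 176, and differed from day 8 by 0.01 ± 0.16 and -0.04 ± 0.16. In ileum it ran from 11.94 to 12.76 (median 12.37) at day 8, from 10.31 to 11.5 (median 10.91) at day 55 and from 10.92 to 12.06 (median 11.25) at day 176. The day 55 arrays of ileum were all below those of day 8, and those of day 176 overlapped with day 8 slightly. The ileum differences were -1.44 ± 0.16 and -1.09 ± 0.16, that is 2.71-fold and 2.13-fold lower (adjusted p 6.03e-11 and 7.92e-08). The change from day 8 in jejunum differed from that in ileum by 1.45 ± 0.23 at day 55 and 1.05 ± 0.23 at day 176 (adjusted p 1.04e-06 and 0.000369). The level jejunum mean at day 176 held probes that moved apart, since 2 of the 4 fitted were called higher (0.68 and 0.75), 1 lower (-1.5) and 1 was near 0 (-0.09).

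**Figure D2:**
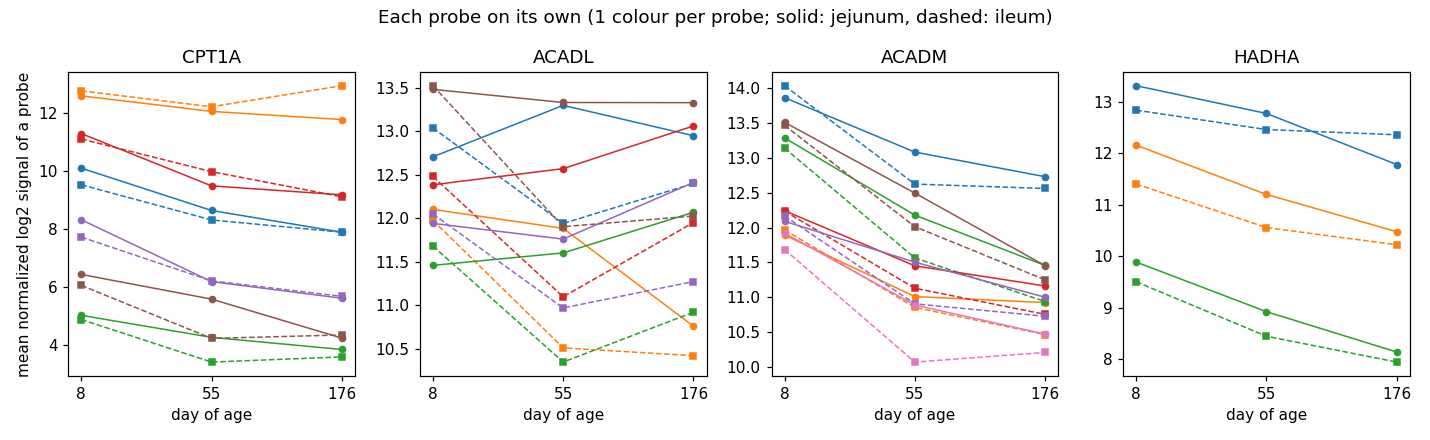
Mean normalized log2 signal of every probe of CPT1A, ACADL, ACADM and HADHA (vertical axes) against age in days, 1 colour per probe, with solid lines for jejunum and dashed lines for ileum. All 7 ACADM probes fall in both tissues, the brightest CPT1A probe stays between 11.8 and 12.9 while the others fall, and the ACADL probes differ in direction in jejunum at day 176.

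HADHA, the alpha subunit of the trifunctional protein, fell stepwise in jejunum. Its signal there ran from 11.33 to 12.38 (median 11.74), from 10.24 to 11.7 (median 11.1) and from 8.52 to 10.54 (median 10.3) at days 8, 55 and 176. In ileum it ran from 9.72 to 11.82 (median 11.46), from 10.12 to 10.92 (median 10.57) and from 9.95 to 10.55 (median 10.12). In jejunum no array of day 176 reached day 8, and the lowest of them, 8.52, was T2 pool 8, one of the arrays that stood apart. The differences from day 8 were -0.79 ± 0.14 and -1.67 ± 0.14 in jejunum and -0.78 ± 0.15 and -1.09 ± 0.15 in ileum (adjusted p between 1.1e-05 and 9.37e-15). From day 55 to day 176 HADHA fell 1.85-fold in jejunum (-0.89 ± 0.15, adjusted p 1.83e-06), whereas in the T1 arrays alone the difference was -0.05 (adjusted p 0.914), and its day 55 level differed between treatments, as given further on. With the brightest of the 3 probes in place of their mean, HADHA was no longer called at day 55 in jejunum (-0.5, adjusted p 0.279) or at either later age in ileum (-0.38 and -0.47).

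PPARA, the fatty acid receptor, was dim and rested on 1 probe. It was well above background on 12 of 12 jejunum and 10 of 11 ileum arrays at day 8, on 11 of 11 and 6 of 11 at day 55, and on 10 of 11 and 7 of 11 at day 176, and on none of the 4 ileum arrays of T3 at day 55. Those 4 arrays had the low shares of probes above background given earlier, and their mean PPARA signal (4.4 ± 1.22, SD) was not below that of T1 (4.38 ± 0.41). No fold is given for PPARA in ileum after day 8, since 5 and 4 of the 11 arrays at days 55 and 176 were at background. In jejunum it ran from 5.38 to 6.72 (median 5.89), from 5.38 to 6.8 (median 6.38) and from 4.38 to 6.19 (median 5.5), and in ileum from 3.48 to 6.24 (median 5.55), from 2.67 to 5.5 (median 4.61) and from 3.2 to 4.91 (median 4.16). The ranges of neighbouring ages overlapped in both tissues. In ileum the differences from day 8 were -1.03 ± 0.23 and -1.34 ± 0.23 (adjusted p 0.000129 and 1.58e-06). In jejunum PPARA differed by 0.39 ± 0.22 at day 55 (adjusted p 0.145) and by -0.56 ± 0.22 at day 176, under the fold limit, and fell 1.93-fold from day 55 to day 176 (-0.95 ± 0.23, adjusted p 0.00057). The PPARA calls with age were lost with another background correction, under which these differences were between -0.31 and -0.46.

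**Figure D3:**
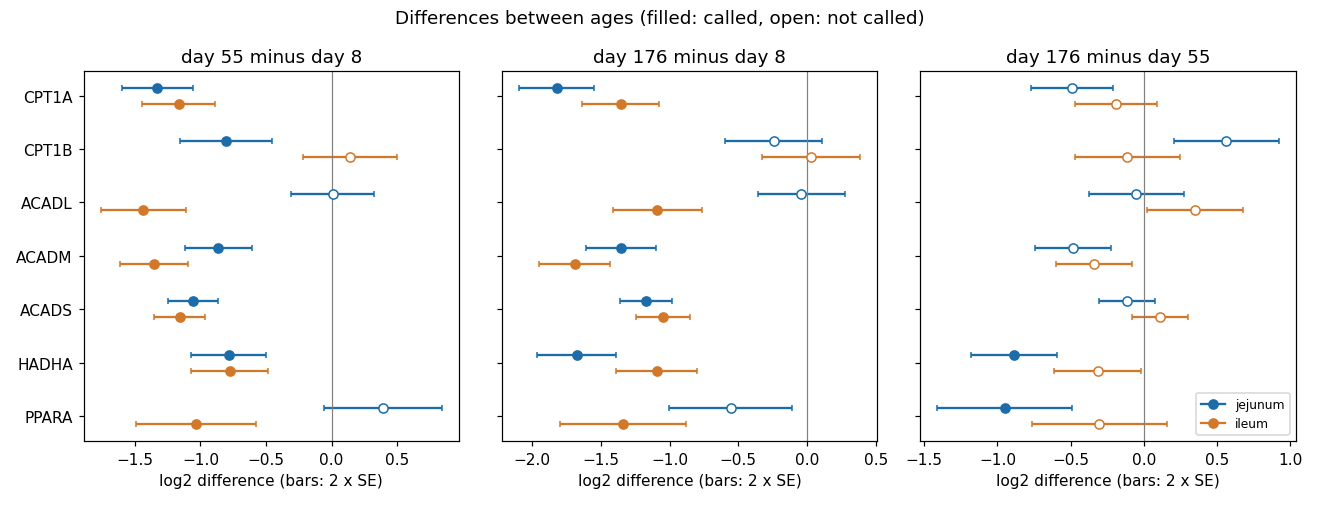
Difference in log2 signal between ages (horizontal axes, bars 2 times the SE) for the 7 genes, in jejunum (blue) and ileum (orange), with filled points for called differences. The falls from day 8 are alike in size for ACADS in both tissues, whereas ACADL and PPARA are called lower at day 55 in ileum and not in jejunum.

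Between the tissues, only ACADL and PPARA were past the fold limit, both after day 8. At day 8 limma called 0 of 7 genes between jejunum and ileum, where 2.5% of genes were called, and 3 of the 7 had an unadjusted p below 0.05 (ACADS 0.26 ± 0.09, CPT1B 0.58 ± 0.17 and HADHA 0.5 ± 0.14 in the direction of jejunum), of which CPT1B and HADHA missed only the fold limit. At day 55 2 of 7 were called, ACADL, 2.59-fold higher in jejunum, and PPARA (1.38 ± 0.16 and 1.87 ± 0.23, adjusted p 5.18e-10 and 1.47e-09), where 39.8% of genes were called. The ACADL arrays did not overlap at day 55, with 12.09 to 12.64 in jejunum against 10.31 to 11.5 in ileum, and the PPARA arrays overlapped narrowly. At day 176 the same genes were called, ACADL 1.96-fold higher and PPARA (0.97 ± 0.16 and 1.23 ± 0.23), where 28.8% of genes were called. PPARA was well above background on 6 and 7 of the 11 ileum arrays, and with another background correction its differences were 0.67 and 0.31, the second no longer called. The other 5 genes, none past the fold limit, differed by between -0.37 and 0.49 at day 55 and between -0.22 and 0.32 at day 176. At day 55 the tissues were scanned in different sessions, so that tissue and scan cannot be told apart there, whereas at day 8 and at day 176 both tissues were scanned in 1 session.

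As a test of the difference itself, the change from day 8 was compared between the tissues. At day 55 it was called for 3 of 7 genes, ACADL, PPARA (1.43 ± 0.32, adjusted p 0.000324) and CPT1B, where 34.4% of genes were called, and at day 176 for ACADL alone, where 20.8% were called. HADHA at day 176 (-0.58 ± 0.21, adjusted p 0.0328) was just under the fold limit, and was called with the pool as a replicate block (-0.65, adjusted p 0.0377). Under the table's names 5 of 7 genes were lower in jejunum at day 8, where 36.9% of all genes were called, and 6 of 7 at day 55, where 47.5% were called. The changes from day 8 to day 176 then differed for 7 of 7, where 44.8% were called, and those to day 55 for 3 of 7, where 34.4% were called. The difference of ACADL and PPARA at day 176 was still called, with 0.97 and 1.23, where 29% of all genes were called.

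Marker genes of several cell types also differed between the tissues or between ages. Between the tissues 2.5%, 39.8% and 28.8% of all genes were called at days 8, 55 and 176. Against day 8, 37.1% and 49% were called in jejunum at days 55 and 176, and 47.3% and 48.6% in ileum. Of the 5 enterocyte markers on the array (ANPEP, FABP1, FABP2, APOA4 and RBP2), 0 differed between the tissues at day 8 and 5 of 5 were higher in jejunum at days 55 and 176, with median differences of 1.98 and 1.63. Their summed level in ileum ran from 20.45 to 20.83 at day 8, from 19.23 to 19.99 at day 55 and from 18.73 to 19.42 at day 176, and in jejunum from 20.52 to 20.87, from 20.72 to 20.92 and from 20.01 to 20.73. Of 5 T cell markers, 5 were higher at day 55 than at day 8 in each tissue, and 4 in jejunum and 5 in ileum at day 176, and the summed level rose from between 10.65 and 12.33 at day 8 to between 13.19 and 14.69 later. Smooth muscle markers were lower for 2 of 3 in jejunum and 3 of 3 in ileum at day 55. Their summed level in jejunum ran from 14.65 to 16.38 at day 8, 13.49 to 14.33 at day 55 and 14.63 to 16.07 at day 176. In ileum it ran from 14.4 to 16.26, 13.33 to 14.17 and 12.72 to 15.42. The summed level of 5 adipose markers was 12.21 to 13.43 at day 8 and 8.74 to 12.38 later, but its members differed. ADIPOQ was well above background on 5 of 12 jejunum and 6 of 11 ileum arrays at day 8, and on 9 and 8 of 11 at day 176. PLIN1 went from 9 and 9 arrays to 0 and 1. Liver markers (3 genes tested) had summed levels of 11.69 to 15.57 at day 8 and 7.78 to 11.84 later. The part of cell composition in the changes of the 7 genes was not tested.

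Other genes of the route were examined from 6 lists. Of all genes, 37.1% and 49% were called in jejunum, and 47.3% and 48.6% in ileum, at days 55 and 176 against day 8. The mitochondrial list had 7 genes. HADH, ECHS1, ECI2 and DECR1 act on the chain after the first step, and MCEE, MUT and PCCB in propionate breakdown. Of these 7, 3 were called in jejunum at day 55, all lower, 5 at day 176 (1 higher, 4 lower), and 4 in ileum at each age, all lower. Their medians were -0.58, -1.06, -1.4 and -1. DECR1, needed for unsaturated chains, was lower by -1.87 ± 0.14 and -1.78 ± 0.14 in jejunum and by -3.13 ± 0.15 and -2.56 ± 0.15 in ileum. HADH, which acts on medium and short chains, differed by -1.03 ± 0.12 in jejunum at day 55 and by -2.26 ± 0.12 in ileum at day 176. ECI2, an isomerase for unsaturated chains, differed by -1.78 ± 0.2 in jejunum at day 176 and -1.72 ± 0.2 in ileum at day 55, and MUT, of propionate breakdown, was higher in jejunum at day 176 (0.66 ± 0.08).

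For the peroxisomal branch, which shortens very long and branched chains, 3 of 5 genes were called in jejunum at day 55 and 2 at day 176, all lower, and 5 of 5 in ileum at both ages, all lower, with a median of -2.45 at day 55. The shares of all genes called were again 37.1% and 49% in jejunum and 47.3% and 48.6% in ileum. SCP2, a thiolase and sterol carrier, was lower by -1.4 ± 0.18 and -2.65 ± 0.18 in jejunum and by -2.79 ± 0.19 and -3.07 ± 0.19 in ileum. PHYH, which starts phytanic acid breakdown, was lower by -2.05 ± 0.18 and -1.95 ± 0.18 in jejunum and by -2.7 ± 0.19 and -2.51 ± 0.19 in ileum. The carnitine genes on the array, SLC22A4, a carrier, and CRAT, an acetyltransferase, were called lower in ileum at both ages (2 of 2) and in jejunum at neither (0 of 2), with SLC22A4 at -1.17 ± 0.11 and CRAT at -0.99 ± 0.1 in ileum at day 55.

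Of 7 uptake and activation genes, 6 were called in jejunum at day 55 (2 higher, 4 lower), 7 at day 176 (2 higher, 5 lower), and 6 in ileum at each age (2 higher, 4 lower). Among all genes 37.1% and 49% were called in jejunum and 47.3% and 48.6% in ileum. ACSL3, an acyl-CoA synthetase, fell most in this list, by -1.95 ± 0.17 and -3.87 ± 0.17 in jejunum and -3.82 ± 0.18 and -5.69 ± 0.18 in ileum. ACSL1 fell in jejunum (-1.89 ± 0.22 and -1.73 ± 0.22), and CD36, a fatty acid receptor and carrier, more so in ileum (-2.58 ± 0.27 and -2.61 ± 0.27). ACSL4, which prefers arachidonic acid, rose instead (1.05 ± 0.11 and 0.99 ± 0.11 in jejunum, 1.5 ± 0.11 and 2.11 ± 0.11 in ileum), and so did ACSS2, which activates acetate (0.92 ± 0.14 and 0.72 ± 0.15 in jejunum and ileum at day 55).

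Genes of ketone body use and transport went in different directions. OXCT1, which uses ketone bodies, rose by 1.97 ± 0.43 in jejunum and 1.43 ± 0.45 in ileum at day 55, and SLC16A1, a carrier of ketone bodies and lactate, fell by -1.11 ± 0.14 and -1.1 ± 0.15.

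Regulators were mixed too. Of 14 genes, 9 were called in jejunum at day 55 (5 higher, 4 lower), 11 at day 176 (6 and 5), 10 in ileum at day 55 (4 and 6) and 9 at day 176 (4 and 5). The shares of all genes called were 37.1%, 49%, 47.3% and 48.6% in turn. UCP3, a mitochondrial carrier that PPARA is known to regulate, fell by between -4.66 and -5.44 in both tissues, and ANGPTL4, an inhibitor of lipoprotein lipase that PPARs induce, fell by -2.12 ± 0.2 in jejunum and -2 ± 0.21 in ileum at day 176. PPARGC1A, a coactivator of oxidation genes, rose in jejunum (1.64 ± 0.14 and 1.74 ± 0.14), RXRG, a partner receptor, rose at day 176 (1.77 ± 0.17 in jejunum and 2.01 ± 0.17 in ileum), and UCP2 rose in ileum (3.96 ± 0.34 and 3.07 ± 0.34).

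Across the 18 gut group means, which share arrays, probes and normalization, the genes fell into sets by likeness. CPT1A, ACADM, ACADS and HADHA correlated with each other more closely than any other pair did, with the highest r of 0.908 for ACADS and CPT1A and of 0.904 for CPT1A and HADHA, ACADL and PPARA at 0.774, and CPT1B with any of the others at 0.449 or less. Within groups, over the deviations of 67 arrays, the highest values were 0.641 for CPT1A and HADHA, 0.509 for ACADL and ACADM and 0.506 for ACADM and ACADS, and ACADS and CPT1A had 0.075. The genes with a symbol whose group means were most like each were MYO6, ULBP1 and ABHD5 for ACADM (r 0.979, 0.968 and 0.964), MAN1A1, NR1H3 and CLDN5 for ACADS (0.978, 0.976 and 0.972), CTSB, GRN and HMOX1 for CPT1A (0.977, 0.976 and 0.975), and ABCG2, NECTIN2 and KLHDC3 for HADHA (0.98, 0.973 and 0.973). For PPARA AHCYL1 and SEC14L2 were among them (0.973 and 0.935), for ACADL NR1I3, GSTA1 and GP1BB (0.949, 0.949 and 0.941), and for CPT1B UBL5, NOTCH4 and LDB1 (0.828, 0.826 and 0.802), the least alike.

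In blood at day 8, 5 genes were well above background on all 12 arrays (ACADL, ACADM, ACADS, CPT1A and HADHA). With the 35 arrays of day 8 on 1 scale, these 5 were called lower than in jejunum and all but HADHA lower than in ileum, where 75.6% and 74% of 32953 genes were called. CPT1B and PPARA were called lower than in both tissues, but only through the gut arrays did they have a measured level, so they are given as bounds. Blood was scanned in another session than the gut of day 8, so that blood and scan cannot be told apart. The size of these differences depends on the normalization. Scaling to the 75th percentile moved the median difference of all genes by 1.06 from jejunum and by 1.22 from ileum. ACADL, ACADM, ACADS and CPT1A stayed called against both tissues under all 11 settings. ACADM ran from 7.72 to 9.03 (median 8.23) in blood, from 10.53 to 12.05 in jejunum and from 10.11 to 11.82 in ileum, and ACADS from 7.97 to 9.61 (median 9.29), 11.83 to 12.38 and 10.68 to 12.18. ACADL ran from 8.47 to 9.19 in blood and from 10.21 to 11.62 over both tissues, and CPT1A from 5.07 to 7.23 in blood against 7.55 to 8.75 in jejunum and 6.94 to 8.46 in ileum. No blood array reached the range of jejunum for these 4 genes. The differences from jejunum were -3.03 ± 0.16 for ACADM, -2.9 ± 0.15 for ACADS, -2.07 ± 0.13 for ACADL and -1.93 ± 0.2 for CPT1A. HADHA was nearest to the gut, with 8.13 to 9.43 in blood, 9.23 to 10.28 in jejunum and 7.4 to 9.68 in ileum, and differences of -0.94 ± 0.16 from jejunum (adjusted p 4.41e-06) and -0.42 ± 0.16 from ileum, under the fold limit.

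CPT1B and PPARA were not well above background on any of the 12 blood arrays. On the quantile-normalized scale of the day 8 arrays, the brightest CPT1B probe was at least 12.5-fold higher in jejunum and at least 8.03-fold higher in ileum than in blood. This bound was set by the lowest signal well above background on each blood array, and it holds for that scale only. Over 11 settings the CPT1B difference of blood from jejunum ran from -6.02 to -2.03, and that from ileum from -5.38 to -1.72. For PPARA the bound was 1.07-fold in jejunum, and no fold can be given for ileum. Enterocyte markers were lower in blood for 5 of 5, T cell markers higher for 6 of 6 and myeloid markers (CD14, S100A8 and S100A9) higher for 3 of 3, and HBE1, a globin, was 12.7 higher on the log2 scale than in jejunum. Under the table's names limma called 6 of 7 genes lower than in jejunum, HADHA being the exception with -0.03, and 7 of 7 lower than in ileum, where 71.3% and 73.8% of all genes were called. Both counts hold CPT1B and PPARA, which had no measured level in blood. Their calls rest on the gut arrays alone, and no bound was computed under these names.

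**Figure D4:**
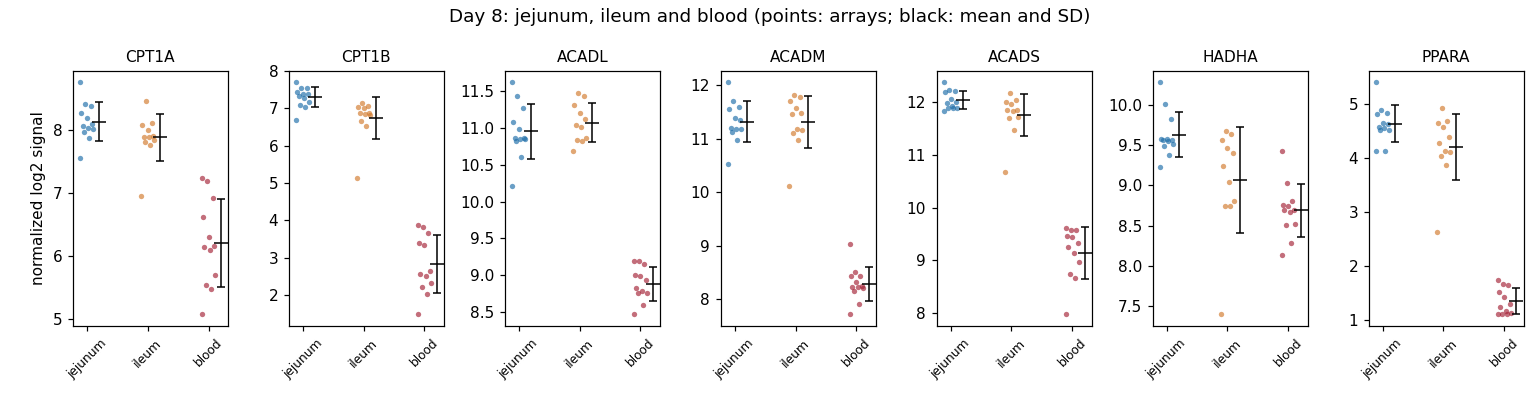
Normalized log2 signal of the 7 genes (vertical axes) in jejunum, ileum and blood at day 8, 1 point per array of a pool, with black bars for mean and SD over 12, 11 and 12 arrays. Blood lies below jejunum except for HADHA, whose blood values of 8.13 to 9.43 overlap with both tissues, and the blood values of CPT1A, 5.07 to 7.23, overlap with ileum. CPT1B and PPARA are at background in blood.

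Treatment was compared within each tissue and age. The clearest difference was in jejunum at day 55, where HADHA and ACADS were lower in T1 than in T2 and T3. HADHA was 10.34, 10.36, 10.43 and 10.54 in the 4 pools of T1, 11.14, 11.49 and 11.6 in the 3 of T2, and 11.24, 11.31, 11.69 and 11.84 in the 4 of T3. ACADS was 11.75, 11.86, 11.99 and 12.11 in T1, 12.45, 12.67 and 12.67 in T2, and 12.65, 12.72, 12.74 and 12.82 in T3. For both genes every pool of T2 and T3 lay above every pool of T1, and T2 overlapped with T3. HADHA was higher by 0.99 ± 0.18 in T2 and 1.1 ± 0.17 in T3, and ACADS by 0.67 ± 0.14 and 0.81 ± 0.13. By limma's F test over the treatments 2 of 7 genes were called (HADHA adjusted p 0.000395, ACADS 0.000972), where 10.2% of 30005 genes were called. T1 and T2 of this tissue and age shared a slide and T3 lay on another, so that the T2 differences are also those within 1 slide.

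The difference was not carried by every probe. For HADHA the 3 probes differed by 1.73 ± 0.24, 0.8 ± 0.16 and 0.45 ± 0.22 in T2 and by 1.92 ± 0.22, 0.82 ± 0.15 and 0.57 ± 0.21 in T3. For ACADS 1 probe differed by 1.27 ± 0.19 and 1.5 ± 0.17, and the brighter one by 0.08 ± 0.14 and 0.12 ± 0.13. CPT1A was not called (0.27 ± 0.21 and 0.57 ± 0.2), although 2 of its 6 probes differed by 1.11 ± 0.21 and 1.13 ± 0.24 in T2 and by 1.63 ± 0.2 and 1.25 ± 0.22 in T3, and the other 4 by between -0.56 and 0.51. With the brightest probe alone HADHA stayed called in this comparison and ACADS did not (0.12, adjusted p 0.828).

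**Figure D5:**
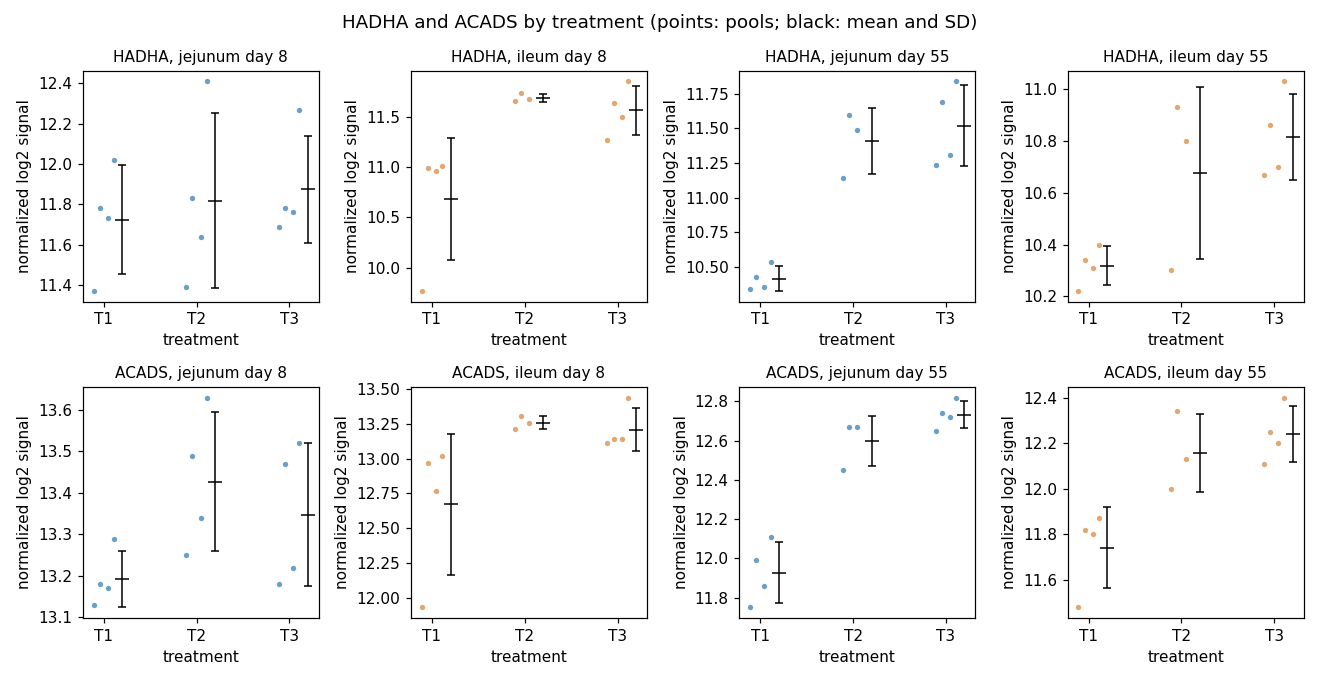
Normalized log2 signal of HADHA (upper row) and ACADS (lower row) by treatment, for jejunum and ileum at days 8 and 55, 1 point per pool with black bars for mean and SD over 3 or 4 pools. In jejunum at day 55 all T2 and T3 pools lie above the T1 pools, at 11.14 or more against 10.54 or less for HADHA.

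In the same comparison, where 10.2% of all genes were called, 2 of the 7 other genes of the mitochondrial list were called. These were HADH, of the cycle (0.75 ± 0.17 in T2 and 0.91 ± 0.15 in T3), and PCCB, of propionate breakdown (0.64 ± 0.16 and 1.01 ± 0.15), both higher than in T1. Of 14 regulators 3 were called, also higher than in T1, ANGPTL4 (1.51 ± 0.3 and 2.03 ± 0.28), RXRB (1.32 ± 0.2 and 1.6 ± 0.19) and SIRT3, a mitochondrial deacetylase (1.26 ± 0.23 and 1.57 ± 0.21). Of 5 genes of the peroxisomal branch 1 was called, SCP2 (0.89 ± 0.3 and 0.99 ± 0.28, F test adjusted p 0.0407), and of 7 uptake and activation genes and 2 carnitine genes 0 were called. OXCT1 (-0.11 ± 0.29 and -0.01 ± 0.27) and SLC16A1 (0.08 ± 0.24 and 0.58 ± 0.22) were not called.

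Markers of other cells differed in the same comparison, where 10.2% of all genes were called. Of 6 T cell markers 3 were called (CD2, CD3D and CD8A), with summed levels of 13.31 to 14.16 in T1, 13.79 to 14.32 in T2 and 14.19 to 14.35 in T3. Of 2 genes in the list for B and plasma cells 1 was called, PIGR, the antibody carrier of the epithelium, higher by 1.41 ± 0.27 and 1.8 ± 0.25. The other, CD79A, was lower and not called (-1.78 ± 0.53 and -0.27 ± 0.49). Summed levels of this list were 12.24 to 13.44 in T1, 13.5 to 14.14 in T2 and 13.75 to 14.55 in T3. Of 5 enterocyte markers 1 was called, ANPEP, a brush border peptidase, higher by 0.67 ± 0.21 and 0.71 ± 0.2 (F test adjusted p 0.0362), while the summed level ran from 20.68 to 20.86 in T1, 20.69 to 20.82 in T2 and 20.68 to 20.84 in T3. FABP1, FABP2 and APOA4 were lower in T2 and T3 and not called (FABP2 -0.55 ± 0.22 and -0.36 ± 0.2). Of 5 striated muscle markers CKM, a creatine kinase, was called (0.93 ± 0.2 and 0.43 ± 0.19, F test adjusted p 0.0147), and the summed level of T1, 15.02 to 15.46, lay below that of T2, 15.71 to 16.17, and T3, 15.65 to 16.13. ACTA1 and TNNT3 were higher in T2 and T3 and not called. MYH7 and MYL1 were lower and not called (-0.33 ± 0.21 and -0.4 ± 0.19 in T2). Of 3 smooth muscle markers DES, an intermediate filament protein, was called (0.79 ± 0.23 and 0.67 ± 0.22, F test adjusted p 0.0465), with summed levels of 14.03 to 14.27, 14.04 to 14.49 and 13.63 to 14. MYLK went the other way (-0.23 ± 0.3 and -0.97 ± 0.28). By limma's pairwise test MYLK was called in T3 (adjusted p 0.0275), and by the F test it was not (adjusted p 0.0644). The part of these marker differences in the HADHA and ACADS differences was not tested. Under the table's names the same arrays are jejunum of day 8, and the 2 genes were then called there for T2 against T1, where 5.5% of all genes were called, and for T3 against T1, where 18.6% were called, and 0 of 7 in jejunum at day 55, where 12.2% were called.

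In ileum at day 55 limma called 0 of 7 genes, where 12.6% of genes were called, and 2 had an unadjusted p below 0.05. ACADS was 11.48, 11.8, 11.82 and 11.87 in T1, 12, 12.13 and 12.34 in T2 and 12.11, 12.2, 12.25 and 12.4 in T3, so that T1 lay below the others, with an adjusted p of 0.032 and a difference of 0.49 ± 0.13 in T3, under the fold limit. HADHA was 10.22, 10.31, 10.34 and 10.4 in T1, 10.3, 10.8 and 10.93 in T2 and 10.67, 10.7, 10.86 and 11.03 in T3, and 1 pool of T2 lay within T1 (F test adjusted p 0.113). T3, with 42.4% to 52% of probes above background, lay on a slide of its own and T1 and T2 on another, so that T3 against T1 cannot be told apart from the slide. Under the table's names 0 of 7 genes were called in ileum at day 55, where 0.772% of genes were called, and 0 of 7 for T2 against T1 in ileum at day 8, where 0.479% were called. At day 176 limma called 0 of 7 in jejunum, where 1.23% of 28236 genes were called, and 0 of 7 in ileum, where 0.0106% were called, with 1 (PPARA) and 0 genes at an unadjusted p below 0.05.

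At day 8, limma called 0 of 7 genes in every comparison of treatments in jejunum and ileum and 0 of the 6 tested in blood, where PPARA did not pass the filter. Of all genes 0.0212%, 0% and 0% were called in jejunum for T2 against T1, T3 against T1 and T3 against T2, 0.418%, 1.07% and 0.0283% in ileum and 0.00694%, 0.00347% and 0% in blood. At an unadjusted p below 0.05 these genes numbered 0 in jejunum, 3, 2 and 0 in ileum and 1, 1 and 0 in blood. In ileum T1 was again lowest. HADHA was 9.77, 10.96, 10.99 and 11.01 in T1, 11.65, 11.67 and 11.73 in T2 and 11.27, 11.5, 11.63 and 11.85 in T3, with no overlap of T1 with the others and differences of 1.002 ± 0.28 in T2 and 0.88 ± 0.26 in T3 (adjusted p 0.09 and 0.0711). PPARA was 3.32, 5.27, 5.35 and 5.7 in T1 and 5.92, 5.97 and 6.28 in T2 (1.15 ± 0.39, adjusted p 0.143). The lowest value of each was that of T1 pool 11, which stood apart, and without the 3 or the 4 such arrays the differences of T2 were 0.69 for HADHA and 0.62 for PPARA (adjusted p 0.124 and 0.248). Without T1 pool 12 limma called HADHA, ACADS and PPARA in T2 and HADHA and ACADS in T3, and without T1 pool 9 HADHA in T3. In ileum at day 8 T1 and T2 shared a slide and T3 lay on another, so that T3 against T1 cannot be told apart from the slide.

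In blood CPT1A was the one gene with an unadjusted p below 0.05. On the scale of the blood arrays alone it ran from 3.57 to 4.55 in T1, from 4.39 to 5.47 in T2 and from 4.39 to 5.03 in T3, so that the groups overlapped, with differences from T1 of 0.8 ± 0.28 and 0.81 ± 0.28 (adjusted p 0.314 and 0.526). T2 and T3 lay on 1 slide and T1 on another, so that these differences and the slide cannot be told apart.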

How the data were processed

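RNA pools of jejunum, ileum and whole blood were labelled with Cy3 and hybridised to 1-colour arrays. The deposited scanner files hold the spot intensity that the authors extracted with Feature Extraction 10.7.3.1, background-subtracted by that software. A second deposited file holds log2 values that the authors made in GeneSpring by quantile normalization and centring on each probe's median. It served as an alternative, as its tissue and day names differ from those of the scanner files. The genome build behind the probes was not given in the sources used here.

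From the processed intensity, signals below 1 were set to 1, log2 was taken and arrays were quantile-normalized together, separately for the gut, for each age, for blood, and for blood with gut at day 8. Spots of a probe and probes of a gene were averaged. A probe stayed in a fit if some group had it at or above the 20th percentile on all of its arrays, and probes with a gap on any array were left out. Accessions were matched to RefSeq symbols, which named 12.5% of the probes. Moderated tests were run in R 4.3.3 using limma 3.58.1 and, for random blocks, statmod 1.5.0, with Benjamini-Hochberg adjustment over all genes of a comparison and an F test over treatments at days 55 and 176. A gene was called at an adjusted p below 0.05 and a fold above 1.5. The fits were tested on simulated data.

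All listed genes were named, and from each pathway list and age comparison at most 2 called genes that rose most and 2 that fell most, with the 3 genes most correlated with each member. Marker genes were named beside results. Some genes that this rule names are not reported here. The members and lists were chosen with earlier results of these data known. The arrays of a group are separate pools of animals, so p-values measure the spread between pools, and the number of arrays limits the precision. At day 8 the jejunum, ileum and blood arrays of a pool number came from the same animals. The tests between tissues, and of the change between tissues, left this pairing out, except in the alternative with the pool as a block. Pools that share a set of sows across treatments correlated with a mean of 0.0378 to 0.143 in their deviations, with a lowest value of -0.16, so the sow set was used as a block only in an alternative. The other alternatives were scaling to the 75th percentile, normexp background correction with an offset of 50, other filters, the brightest probe of a gene, an intensity trend, the slide as a random block, the tissues fitted apart, T1 arrays alone and leaving out each array. Chosen after seeing the data were the names of that second file, leaving out 3 and 4 arrays, the day 8 arrays of the other tissue and the pool as a block.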

Additional observations from a re-analysis of the deposited data

Results flagged for a closer look

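In 9 of 112 sets of 4 pools the highest or lowest array stood apart from the rest by Dixon's criterion, which chance meets in about 1 of 20 sets. In ileum at day 8, T1 pool 11 was low for CPT1A (8.24, nearest pool 9.09) and HADHA (9.72, nearest 10.92), and T3 pool 2 was high for ACADS (13.47, nearest 13.16). In ileum at day 176, T1 pool 11 was high for ACADM (11.37, nearest 10.92) and low for CPT1B (7.48, nearest 8.32), and T2 pool 6 was high for ACADS (12.23, nearest 11.87). In jejunum, T3 pool 2 of day 176 was low for ACADM (11, nearest 11.45) and ACADS (11.87, nearest 12.26), and T3 pool 3 of day 8 was high for HADHA (12.24, nearest 11.75).

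The change from day 8 differed between jejunum and ileum, by limma's test of that difference, for ACADL (1.45), CPT1B (-0.95) and PPARA (1.43) at day 55 and for ACADL (1.05) at day 176. Under the table's names the values at day 55 had the opposite sign.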

How the results depend on the processing

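Of the values for single genes under 16 settings other than the table's names, 1936 kept their direction where called and their side of the threshold, 24 newly passed it, 28 no longer passed it and 1 reversed, CPT1A in ileum at day 176 with the brightest probe (0.272). Of the called differences in the gut, each stayed called without any 1 of the 67 arrays.

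A count of called genes is given here where it moved by more than 1.5 times, and the number that moved at all follows. With 75th percentile scaling there were 5 between tissues at day 55 and 1 at day 8. This scaling shifted the median of all genes by up to 0.48 between ages and by -0.435 between tissues at day 55. For blood against jejunum and ileum the shifts were larger, 1.06 and 1.22. In the T1 arrays alone there were 3 in jejunum at day 55 against day 8 and 1 at day 176 against day 55. With the brightest probe there were 3 in jejunum at day 55 against day 8, 1 for treatments in jejunum and 1 in ileum at day 55. With normexp there was 1 in jejunum at day 176 against day 55 and 1 between tissues at day 176. The difference between the tissues' changes to day 176 had 2 with the pool as a replicate block and 2 without the 3 or the 4 arrays that stood apart. The authors' table gave 0 for treatments in jejunum at day 55 and 2 for T3 against T1 in jejunum at day 8. Counting every move, also those of 1.5 times or less, 5 of 26 counts differed with 75th percentile scaling, 7 with normexp, 8 with the brightest probe and 1 with the filter on well above background, 1 of 16 with the tissues fitted apart, 5 of 6 in the T1 arrays alone, 1 of 7 with the pool as a block, 3 of 21 without the 3 arrays and 3 without the 4, 1 of 6 with the day 8 arrays of the other tissue, 12 of 21 under the table's names and 2 of 14 in the authors' table. No count changed with no filter (26), an intensity trend (26), the slide as a random block (13), the sow sets as a replicate block (13) or without jejunum T2 pool 8 of day 8 (15).

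Leaving out 1 array gave 0 to 1 between tissues at day 8 (CPT1B), 1 to 3 for the change to day 176 between tissues (HADHA or PPARA added), 0 to 3 for T2 against T1 and 0 to 2 for T3 against T1 in ileum at day 8, 4 to 5 and 2 to 3 in jejunum at day 176 against days 8 and 55, and 3 to 4 for the change to day 55 between tissues.

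The table's names moved most. Counts became 2 in jejunum at day 55 and 2 at day 176 against day 8, 0 in ileum at day 55 and 6 at day 176 against day 55, 5 and 6 between tissues at days 8 and 55, 7 for the change to day 176 between tissues, 2 and 2 for T2 and T3 against T1 in jejunum at day 8 and 0 for treatments in jejunum at day 55. Reversed values were ACADL -1.375, CPT1B 0.3664 and PPARA -1.872 in jejunum at day 55 against day 8, ACADL 1.323 and PPARA 0.9221 at day 176 against day 55, ACADL 0.1319 and ACADM 0.06881 in ileum at day 55 against day 8, and ACADL -1.088 and ACADS -1.049 at day 176 against day 55. Between tissues they were ACADS -1.03, CPT1A -1.39, CPT1B -0.7951 and HADHA -0.8319 at day 8, and ACADL -1.437, ACADM -1.352, ACADS -1.159, CPT1A -1.164, HADHA -0.7764 and PPARA -1.034 at day 55. For the changes between tissues they were ACADL -1.507, CPT1B 0.9339 and PPARA -1.429 at day 55 and ACADS 1.171, CPT1A 1.175, CPT1B 1.103 and HADHA 0.7543 at day 176. Apart from changes of name by construction, the cause was not tested.

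The slide as a random block was not run for treatments, since every group lies on 1 slide, nor the authors' table between tissues at days 8 and 55. PPARA, near background in ileum after day 8, is limited by its signal.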
